A study of Mus musculus with 3 samples.

Results

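Connexins are the subunits of gap junctions, the channels that join the cytoplasm of neighbouring cells, and pannexins form related channels that release ATP and other small molecules from single cells. In bone, connexin 43 is known to couple osteoblasts and osteocytes, connexins 37 and 40 couple the endothelium of arteries, connexin 45 is found in smooth muscle, and pannexin 3 is known from osteoblasts and hypertrophic cartilage. Each gap junction needs a connexin on both sides of a contact, so which cell carries which gene bears on which neighbours could be coupled. The 8 genes described here were chosen by symbol: *Gja1* (connexin 43), *Gja4* (connexin 37), *Gja5* (connexin 40), *Gjc1* (connexin 45), *Gjb2* (connexin 26), *Gjb6* (connexin 30), *Panx1* and *Panx3*. All 8 were among the 55422 genes of the deposited counts, which also held 15 other connexin and pannexin genes.

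The series holds droplet single-cell RNA sequencing of untreated mouse long bone at post-natal week 3, on a C57BL/6 background. Libraries metaphyseal 1 and metaphyseal 2 are replicates of the metaphysis, the zone of new bone under the growth plate, after haematopoietic cells had been depleted. Library Pdgfra-GFP 1 holds cells of the metaphysis and epiphysis sorted for a nuclear GFP knocked into *Pdgfra*, so it selects for cells that hold this GFP, and it has no replicate. By the study's methods the Pdgfra-GFP mice were heterozygous reporter males and the metaphyseal ones wild-type males. No source says whether the metaphyseal replicates came from separate animals, so p-values do not measure a spread between known animals. They rest on the spread left over these 3 libraries after terms for library and cell population, estimated over all populations in the fit. Total UMIs (unique molecular identifiers, 1 per captured transcript) were 25243314, 22082735 and 91747759, in that order, and the 2389, 2011 and 11319 cells kept had median depths of 6257, 6458 and 5354 UMIs. Between libraries, 0, 9 and 10 cell barcodes were shared.

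Cells were assigned to populations by fixed marker lists that contain no connexin and no pannexin, and each population is called X-like in that sense only. The osteoblast lineage-like gate (*Bglap*, *Ibsp*, *Ifitm5* and others) held 222, 191 and 1897 cells in metaphyseal 1, metaphyseal 2 and Pdgfra-GFP 1, and the same order is used for all values below. Chondrocyte-like cells numbered 41, 38 and 1748, arterial endothelium-like cells 93, 70 and 99, mural-like cells (pericytes and smooth muscle) 19, 19 and 76, and septoclast-like cells, which resorb cartilage, 14, 10 and 240. A pair of stromal populations served as neighbours, metaphyseal stromal cells (mpMSC-like; 55, 41 and 1329) and the *Lepr*-positive diaphyseal stromal cells (dpMSC-like; 750, 702 and 4299). In all but the late osteoblast-like and metaphyseal 1 septoclast-like cells, every marker of the gate was seen in at least 10% of the cells of these populations. Of the late osteoblast-like cells (13, 14 and 146), *Sost* was at 0 in both metaphyseal libraries. The GFP transcript in Pdgfra-GFP 1 reached 999 CPM in mural-like, 463 CPM in septoclast-like and 444 CPM in arterial-like cells. It stood at 185 CPM in mpMSC-like cells, 121 CPM in dpMSC-like cells and 51.8 CPM in the osteoblast lineage. The GFP level was lower still in chondrocyte-like cells (15.6 CPM) and in endothelium-like cells other than the arterial ones (7.09 CPM). *Pdgfra* itself had 0 UMIs in these mural-like and 2 in these arterial-like cells. CPM are UMIs of a gene per 1000000 UMIs of the summed cells of a population in 1 library.

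The 8 genes divided the bone by cell type. *Gja1* was the connexin of the stroma and osteoblasts, with the highest level in mpMSC-like cells. *Gja4* and *Gja5* were concentrated in arterial-like endothelium, and *Gja4* was also present in mural-like cells, where *Gjc1* had its highest level. *Panx3* had its highest CPM in hypertrophic chondrocyte-like cells, followed by the osteoblast lineage and other chondrocyte-like cells, which overlapped. *Gjb6* was sparse and lay almost wholly in cartilage, *Gjb2* was near the limit of detection, and *Panx1* was low in all populations. In near-empty barcodes (at most 100 UMIs), whose RNA comes mostly from outside cells, *Gja1* stood at 395, 401 and 536 CPM, *Panx3* at 30.2, 33.3 and 33.3 CPM, and *Gja4* at 54.9, 50.2 and 15.6 CPM. The part of such free RNA in the low values below was not tested.

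**Figure D1:**
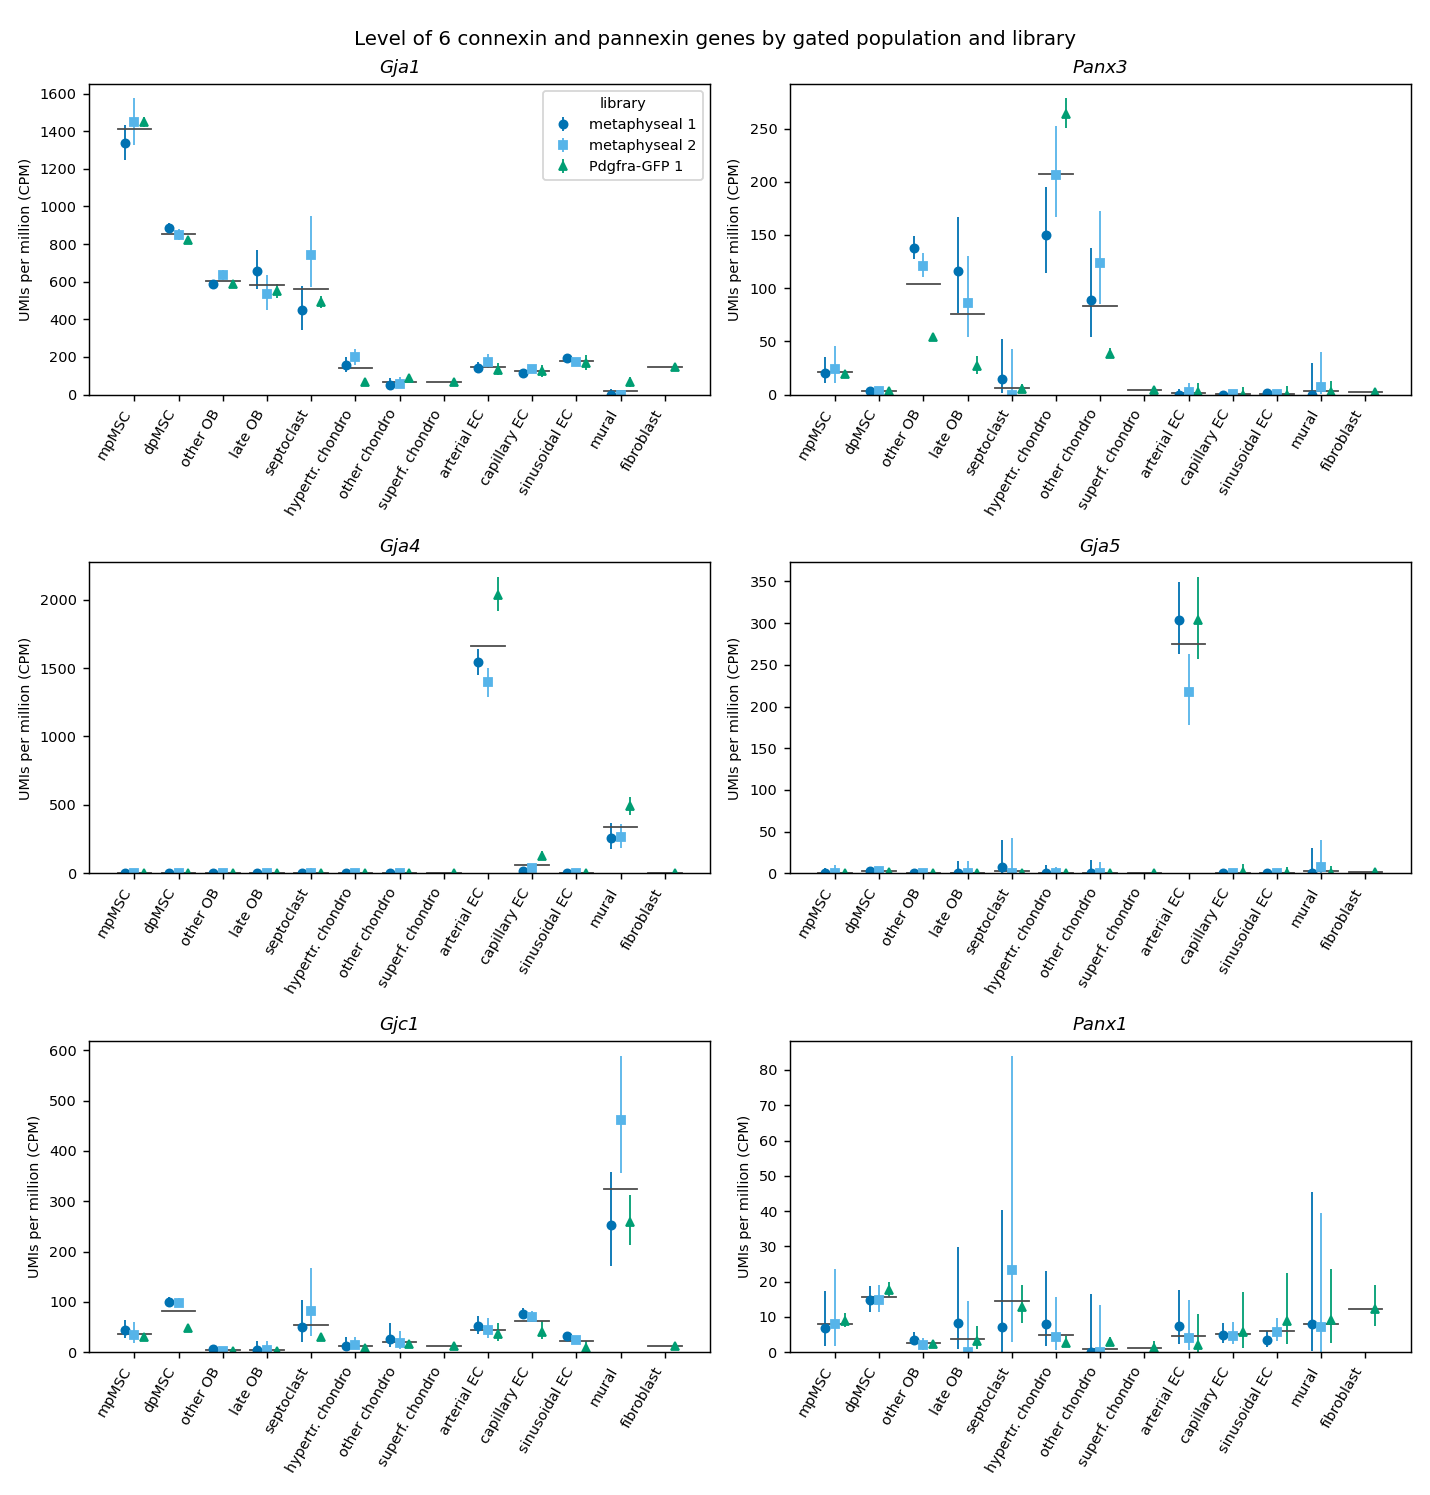
Level of 6 genes in 13 gated populations, as CPM on a linear axis that starts at 0. Each point is 1 library, bars are exact 95% Poisson intervals (counting error only), and grey lines are means over libraries; *Gja1* is highest in mpMSC-like cells (1337 to 1450 CPM), *Gja4* and *Gja5* in arterial-like cells, and *Gjc1* in mural-like cells.

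*Gja1*, on chromosome 10 (GRCm38 56377330 to 56402513, plus strand), encodes the main gap junction protein of bone cells. Its levels were 1337, 1447 and 1450 CPM in mpMSC-like cells, 885, 851 and 821 CPM in dpMSC-like cells, and 590, 629 and 585 CPM in the osteoblast lineage. In CPM, the 3 libraries did not overlap between these populations, and the order was the same in each. The order of dpMSC-like cells and the osteoblast lineage turns with the scaling used in the fit below. Nearly every cell carried it: at least 1 UMI was seen in 92.7%, 100% and 96.0% of mpMSC-like cells and in 99.5%, 98.4% and 96.5% of osteoblast lineage-like cells, against 13.2%, 12.7% and 16.5% of haematopoietic-like cells, taken here as background (median UMIs per cell 8159, 9529 and 6272 there, against 21628.5, 20800 and 11223 in the osteoblast lineage). Endothelial-like populations lay lower, from 116 to 192 CPM in capillary, sinusoidal and arterial cells. Mural-like cells had 0, 0 and 28 UMIs of *Gja1*, found in 12 of 76 cells of Pdgfra-GFP 1 and in 0 of 19 in each metaphyseal library, which allows a share of cells with a UMI of up to 15.8% there. By summed UMIs, the osteoblast lineage and both stromal populations held 81.8%, 81.5% and 87.1% of all *Gja1* UMIs of a library.

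*Panx3*, on chromosome 9 (37659902 to 37669235, minus strand), encodes a channel of bone-forming and cartilage cells. In the osteoblast lineage it measured 137, 119 and 51.7 CPM, against 20.2, 24.2 and 19.7 CPM in mpMSC-like cells and 3.16, 3.07 and 3.71 CPM in dpMSC-like cells. Pdgfra-GFP 1 lay below both metaphyseal libraries in the osteoblast lineage, yet every library placed the lineage above the stroma. At least 1 UMI was seen in 71.6%, 65.4% and 28.0% of osteoblast lineage-like cells, against 0.388%, 0.239% and 0% of sinusoidal endothelium-like cells (median UMIs per cell 5497.5, 5836.5 and 4895.5). With each cell thinned to 2000 UMIs the osteoblast shares became 22.1%, 19.4% and 9.61%. Over all members and populations, the thinning moved 55 shares by more than the SD between libraries. Since fewer positive cells and less RNA per cell give the same sum, the lower CPM of Pdgfra-GFP 1 cannot be assigned to either.

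The osteoblast lineage was compared with mpMSC-like cells, the nearest stromal neighbours, by edgeR's quasi-likelihood test on the summed counts with library as a block, the Benjamini-Hochberg adjustment covering all genes tested. Of the 7 members tested (*Gjb2* did not pass the filter on low counts in any comparison), 1 was higher and 2 were lower, where 17.7% of all 13426 genes were called higher and 18.2% lower. In each comparison the 7 include members with few or no UMIs. *Gjb6* had 0 UMIs on both sides of the septoclast, arterial, mural and arterial against mural comparisons below, so it could not be called there. *Panx3* rose by 2.79 ± 0.23 (log2 fold change ± SE, 3 libraries, adjusted p = 9e-10) and was higher in 3 of 3 libraries. *Gjc1* fell by 2.42 ± 0.24 (adjusted p = 1.55e-08), from 43.8, 34.9 and 30.9 CPM in mpMSC-like cells to 6.04, 3.06 and 3.23 CPM. *Panx1*, the broadly expressed ATP-release channel, fell by 0.94 ± 0.30 (adjusted p = 0.0144), with 82 UMIs in mpMSC-like and 73 in osteoblast lineage-like cells over all libraries. The *Panx1* call was lost without metaphyseal 2 (adjusted p = 0.156), without the library block (0.0541) and by DESeq2's Wald test (0.230), and without Pdgfra-GFP 1 the gene did not pass the filter on low counts. *Gja1* had a log2 fold change of -0.50 ± 0.28 and was not called (adjusted p = 0.174), although its CPM were lower in 3 of 3 libraries. The fit used TMM scaling, which corrects each sum for a few genes that take up a large share of its UMIs. The TMM factors were 0.707, 0.679 and 0.552 in the osteoblast lineage and 1.08, 1.08 and 1.04 in mpMSC-like cells. In dpMSC-like cells they were 1.15, 1.14 and 1.06. Divided by these factors, the *Gja1* CPM of the osteoblast lineage lie above those of dpMSC-like cells in each library. That is the reverse of the CPM order, and this pair was not tested. On CPM without TMM, *Gja1* fell by 1.24 (adjusted p = 0.000723), while the median of all genes moved from -0.04 to -0.81 and the share of calls that were higher from 49.3% to 9.48%. *Gja1* was called lower under 6 of 15 alternative settings, with adjusted p between 0.000208 and 0.0356, and its direction was the same under all 15.

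Within the osteoblast lineage, 0 of the 7 members were called between the late osteoblast-like cells (*Dmp1*, *Mepe*, *Phex*) and the rest, where 1.62% of all 11971 genes were called higher and 1.24% lower. Of the 7, *Gja5* had 0 UMIs on both sides. *Gja4* and *Gjb6* had 0 in the late cells and 14 and 3 in the rest, too few to show a difference. edgeR called 342 genes in this comparison and put 1906 at an unadjusted p under 0.05. *Gja1* measured 657, 536 and 550 CPM in late osteoblast-like cells and 586, 636 and 587 CPM in the others, so the ranges overlapped (log2 fold change -0.11 ± 0.29). *Panx3* was lower in the late cells of 3 of 3 libraries, at 116, 86.0 and 26.5 CPM against 138, 121 and 53.7 CPM, with an unadjusted p of 0.0246 by edgeR and an adjusted p of 0.225. It was called with no filter on low counts and when sums needed at least 20 cells, which leaves the late cells of Pdgfra-GFP 1 alone. The late cells of the metaphyseal libraries numbered 13 and 14.

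Septoclast-like cells, which sit between vessel buds and cartilage, were set against mpMSC-like cells. Of 7 members, 0 rose and 2 fell, where 3.43% of genes were called higher and 3.14% lower. *Gja1* measured 450, 743 and 490 CPM in septoclast-like cells and fell by 1.56 ± 0.30 (adjusted p = 0.00121, lower in 3 of 3 libraries). *Panx3* was at 2, 0 and 10 UMIs in septoclast-like cells and fell by 1.79 ± 0.46 (adjusted p = 0.0165, lower in 3 of 3 libraries). The *Panx3* call was lost without metaphyseal 2 (adjusted p = 0.0991) and without Pdgfra-GFP 1 (adjusted p = 0.609), and the *Gja1* call was lost without the library block (adjusted p = 0.0661). *Panx1* was higher in septoclast-like cells of 3 of 3 libraries but rested on 27 UMIs and was not called (log2 fold change 0.53 ± 0.37, adjusted p = 0.508). *Gjc1* measured 50.8, 81.3 and 29.8 CPM in septoclast-like cells, on 7, 7 and 56 UMIs. It was close to mpMSC-like cells (log2 fold change 0.09 ± 0.28, adjusted p = 0.947 by edgeR). Near-empty barcodes held *Gjc1* at 40.9, 42.0 and 16.7 CPM. In both metaphyseal libraries this lies within the counting interval of the septoclast-like cells (20.4 to 105 and 32.7 to 168 CPM).

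Between chondrocyte-like cells and the osteoblast lineage, 2 of 7 members were higher and 1 was lower. Over all genes, 19.6% were called higher and 19.4% lower, so these counts do not set the members apart from other genes. On CPM without TMM, 75.2% of the calls were higher, against 50.2% with it. *Gja1* fell by 2.86 ± 0.31 (adjusted p = 3.61e-08), from the osteoblast values above to 111, 144 and 76.7 CPM. *Gjc1* rose by 1.60 ± 0.25 (adjusted p = 1.07e-05 by edgeR), to 17.4, 15.8 and 12.8 CPM. These levels lay below those of mpMSC-like cells and of near-empty barcodes (40.9, 42.0 and 16.7 CPM) in each library. *Gjb6*, a connexin best known from the inner ear and skin, had 2, 12 and 145 UMIs in chondrocyte-like cells and 0, 0 and 3 in the osteoblast lineage. With UMIs pooled over the 3 libraries, that is a ratio of 96.0 in CPM (counting interval 32.2 to 470). Every ratio in CPM below was pooled in the same way. The adjusted p of *Gjb6* was 1.45e-05 by edgeR and 0.513 by DESeq2's Wald test. Its UMIs were held by 2, 4 and 95 cells. Without Pdgfra-GFP 1 the osteoblast lineage had no *Gjb6* UMI at all, and the gene did not pass the filter.

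*Panx3* was not called between these lineages (log2 fold change 0.13 ± 0.18, adjusted p = 0.624), and its values within cartilage are given by subset. In the hypertrophic chondrocyte-like cells (*Col10a1*, *Ihh*, *Pth1r*, *Scin*; 28, 24 and 499 cells) *Panx3* reached 150, 206 and 264 CPM, its highest CPM in every library. In metaphyseal 1, however, the counting interval of the hypertrophic cells (114 to 195 CPM) took in that of the osteoblast lineage (126 to 148 CPM). At least 1 UMI was seen in 17.9%, 58.3% and 40.9% of hypertrophic cells, against 71.6%, 65.4% and 28.0% of osteoblast lineage-like cells. The order holds for CPM and was not tested on the TMM scale. Other chondrocyte-like cells (11, 13 and 781) had 89.2, 123 and 38.6 CPM, and the superficial ones with *Prg4*, of which only Pdgfra-GFP 1 held more than 2, had 4.35 CPM. Hypertrophic cells were above the other chondrocyte-like cells in 3 of 3 libraries, by a margin that the counting intervals separate in Pdgfra-GFP 1 (250 to 278 against 34.1 to 43.5 CPM) but not in metaphyseal 1 (114 to 195 against 54.5 to 138 CPM) or metaphyseal 2 (167 to 252 against 85.3 to 172 CPM). In metaphyseal 1 all 57 hypertrophic *Panx3* UMIs came from 5 cells. These subsets of cartilage were compared as values, with no test.

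**Figure D2:**
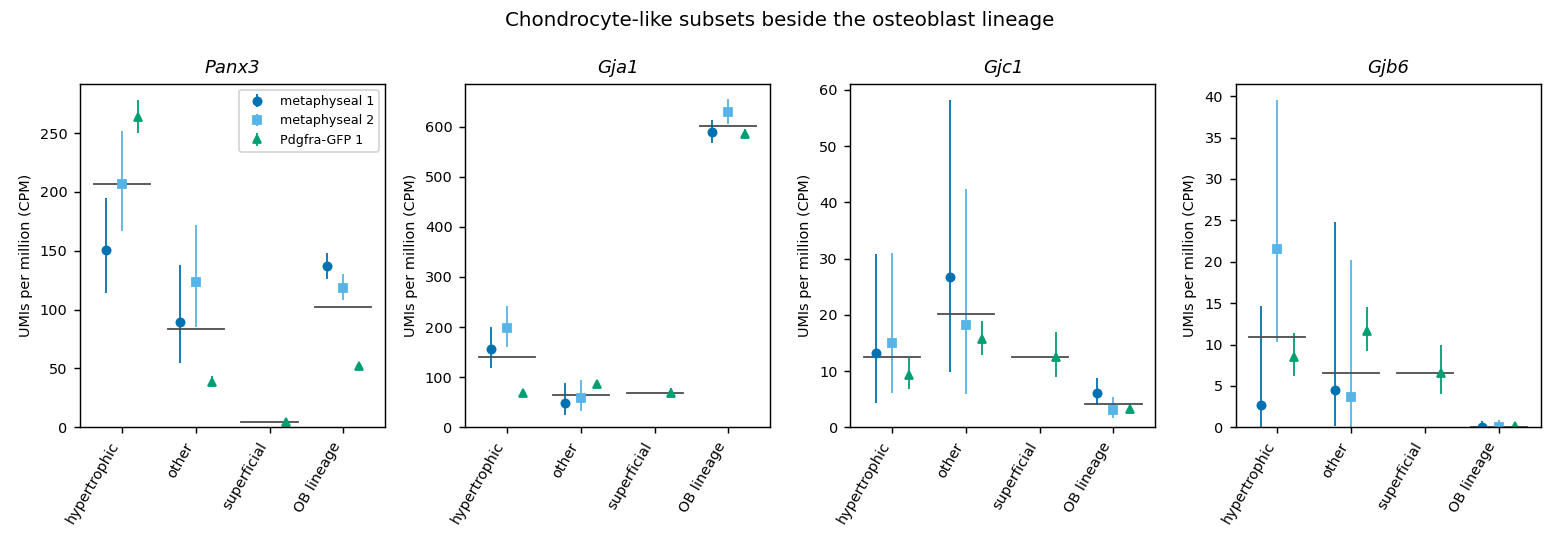
Levels in chondrocyte-like subsets and the osteoblast lineage, as CPM on linear axes from 0; points are libraries, bars exact 95% Poisson intervals and grey lines means. *Panx3* is highest in hypertrophic cells (150, 206 and 264 CPM), *Gja1* in the osteoblast lineage (585 to 629 CPM), and *Gjb6* stays under 22 CPM in each subset.

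*Gjb2* and *Gjb6* are neighbours on chromosome 14 (57098600 to 57104702 and 57123303 to 57133611, both on the minus strand). *Gjb2* had 0, 1 and 24 UMIs in chondrocyte-like cells and 0, 0 and 14 in the osteoblast lineage, where 3 cells held all 14, and 10 UMIs of the fibroblast-like cells came from 1 cell. Both genes had 0 UMIs in dpMSC-like and mural-like cells of every library. Among the 15 other family genes, *Gjc3* (connexin 29, known from myelinating glia) was the only one to reach 20 CPM in any population. It measured 49.2, 31.5 and 60.5 CPM in chondrocyte-like cells (31, 24 and 926 UMIs) and had 0, 0 and 3 UMIs in the osteoblast lineage, a ratio of 592 with a counting interval of 202 to 2876 (adjusted p = 6.65e-13 by edgeR, higher in 3 of 3 libraries). Its level exceeded that of *Gjb6* in chondrocyte-like cells of each library, although values of different genes are not adjusted for transcript length.

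*Gja4*, *Gja5* and *Gjc1* had their highest levels in the vessel wall. *Gja4* (chromosome 4, 127311421 to 127314039, minus strand) and *Gja5* (chromosome 3, 96904693 to 97077416, plus strand) encode the connexins of arterial endothelium. The *Gja5* gene model overlaps 4 genes on the other strand. The promoters of both are shown because the genes rose together in the same cells: the 250 bases before the start annotated by RefSeq on GRCm38.p6, 5′ to 3′ on the gene's strand, at chr4:127314040-127314289 for *Gja4* and chr3:97032152-97032401 for *Gja5*. Capitals mark matches, on either strand, to a GC box (GGGCGG) or a SOX site (ACAAT).

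Gja4: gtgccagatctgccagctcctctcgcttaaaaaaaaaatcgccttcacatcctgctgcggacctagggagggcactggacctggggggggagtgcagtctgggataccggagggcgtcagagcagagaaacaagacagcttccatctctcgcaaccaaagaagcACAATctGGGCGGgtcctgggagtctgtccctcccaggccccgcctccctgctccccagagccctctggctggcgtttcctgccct
Gja5: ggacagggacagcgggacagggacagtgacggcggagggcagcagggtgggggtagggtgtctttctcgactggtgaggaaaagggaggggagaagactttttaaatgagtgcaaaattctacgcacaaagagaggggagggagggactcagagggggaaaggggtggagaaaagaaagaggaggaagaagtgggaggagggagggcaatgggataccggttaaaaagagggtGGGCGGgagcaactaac

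The *Gja4* window held 1 GC box, starting 79 bases before the start, and 1 SOX site at 86 bases, 2 bases apart. The *Gja5* window held 1 GC box at 17 bases and no SOX site. The RefSeq start of *Gja5* was not matched in a Gencode M21 transcript, and its window lies inside the *Gja5* gene model. The distances for *Gja5* therefore hold for the RefSeq start only. Neither window held a TATA box (TATAAA), an E-box (CANNTG), an AP-1 site (TGANTCA) or a RUNX site (TGTGGT). Their GC contents were 61.2% and 56.4%, against a median of 52.4% over the 32851 promoters of the same length, of which 32.7% held a GC box and 27.7% a SOX site. The ETS core (GGAA) occurred 2 times before *Gja4* and 3 times before *Gja5*, and 93.4% of all promoters held at least 1.

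*Gja4* measured 1543, 1394 and 2035 CPM in arterial-like cells, 18.8, 38.7 and 129 CPM in capillary-like cells and 0.333, 0.776 and 2.19 CPM in sinusoidal-like cells. These 3 ranges did not overlap. *Gja5* measured 304, 217 and 303 CPM in arterial-like cells and had 0 UMIs in sinusoidal-like cells (516, 418 and 90 cells), which allows shares of cells with a UMI of up to 0.581%, 0.718% and 3.33% and sets no limit on cells that express it below detection. Arterial-like cells were 3.89%, 3.48% and 0.875% of the cells of a library and held 86.3%, 77.0% and 71.6% of its *Gja4* UMIs and 89.0%, 84.9% and 74.9% of its *Gja5* UMIs. *Gja4* was seen in 92.5%, 95.7% and 93.9% of arterial-like cells and *Gja5* in 61.3%, 55.7% and 59.6% (median UMIs per cell 6453, 6662.5 and 4113). In sinusoidal-like cells *Gja4* was seen in 1, 2 and 1 cells.

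Against all other endothelium-like cells, 2 of 7 members were higher in the arterial-like cells and 0 lower, where 6.21% of genes were called higher and 8.96% lower. *Gja4* rose by 5.32 ± 0.39 (adjusted p = 6.12e-10) and *Gja5* by 7.86 ± 0.40 (adjusted p = 2.12e-12), each higher in 3 of 3 libraries. The gate used *Sema3g*, *Bmx*, *Efnb2*, *Sox17*, *Fbln5*, *Stmn2* and *Vegfc* and neither connexin, but *Gja4* was already known as the arterial marker of the study, so the direction was known beforehand. The gate thresholds were also set after member levels had been seen, so these adjusted p do not come from groups fixed in advance. *Gja1* (log2 fold change -0.13 ± 0.30, adjusted p = 0.844) and *Gjc1* (-0.05 ± 0.24, adjusted p = 0.946) did not separate arterial-like from other endothelium-like cells. *Gjc1* did vary among the others: it measured 76.7, 69.9 and 41.1 CPM in capillary-like and 32.3, 24.8 and 8.76 CPM in sinusoidal-like cells, higher in the capillary-like cells of each library, a contrast given as values with no test.

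*Gjc1*, on chromosome 11 (102799579 to 102819700, minus strand), encodes the connexin of vascular smooth muscle and the conduction system. In mural-like cells it measured 252, 462 and 259 CPM and was seen in 84.2%, 89.5% and 63.2% of cells, against 2.63%, 0% and 2.16% of haematopoietic-like cells. dpMSC-like cells followed at 99.2, 98.7 and 48.9 CPM, apart from mural-like cells in every library. They held 46.4%, 51.9% and 48.5% of all *Gjc1* UMIs of a library. Late and other osteoblast-like cells were at 3.00 to 6.14 CPM.

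Between mural-like and mpMSC-like cells, 2 of 7 members were higher and 2 lower, where 6.75% of genes were called higher and 6.02% lower. *Gja4* rose by 8.67 ± 0.68 (adjusted p = 2.15e-09), from 2, 0 and 8 UMIs in mpMSC-like cells to 260, 263 and 489 CPM in mural-like cells. *Gjc1* rose by 3.00 ± 0.23 (adjusted p = 4.54e-10). *Gja1* fell by 5.40 ± 0.41 (adjusted p = 4.05e-10), the widest drop of the gene among the 7 comparisons. *Panx3* was at 2 UMIs in all mural-like cells together, and mpMSC-like cells were higher by a ratio of 6.98 in CPM, with a counting interval of 1.90 to 58.0 (adjusted p = 0.0127 by edgeR). The *Panx3* call was lost without Pdgfra-GFP 1 (adjusted p = 0.165).

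Arterial-like endothelium and mural-like cells, the inner and outer layers of the vessel wall, both carried *Gja4*. Of 7 members, 3 were higher in the endothelium and 1 lower, where 10.5% of genes were called higher and 9.91% lower. *Gja4* was higher in the endothelium by 2.44 ± 0.37 (adjusted p = 2.04e-05) and *Gja1* by 2.09 ± 0.43 (adjusted p = 0.000636). *Gja5* had 1 UMI in all mural-like cells against 464 in arterial-like cells, a ratio of 195 in CPM with a counting interval of 34.7 to 7701 (adjusted p = 4.9e-08 by edgeR). *Gjc1* fell by 2.85 ± 0.24 from the mural-like to the arterial-like cells (adjusted p = 2.45e-09). All 4 held their direction in 3 of 3 libraries.

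**Figure D3:**
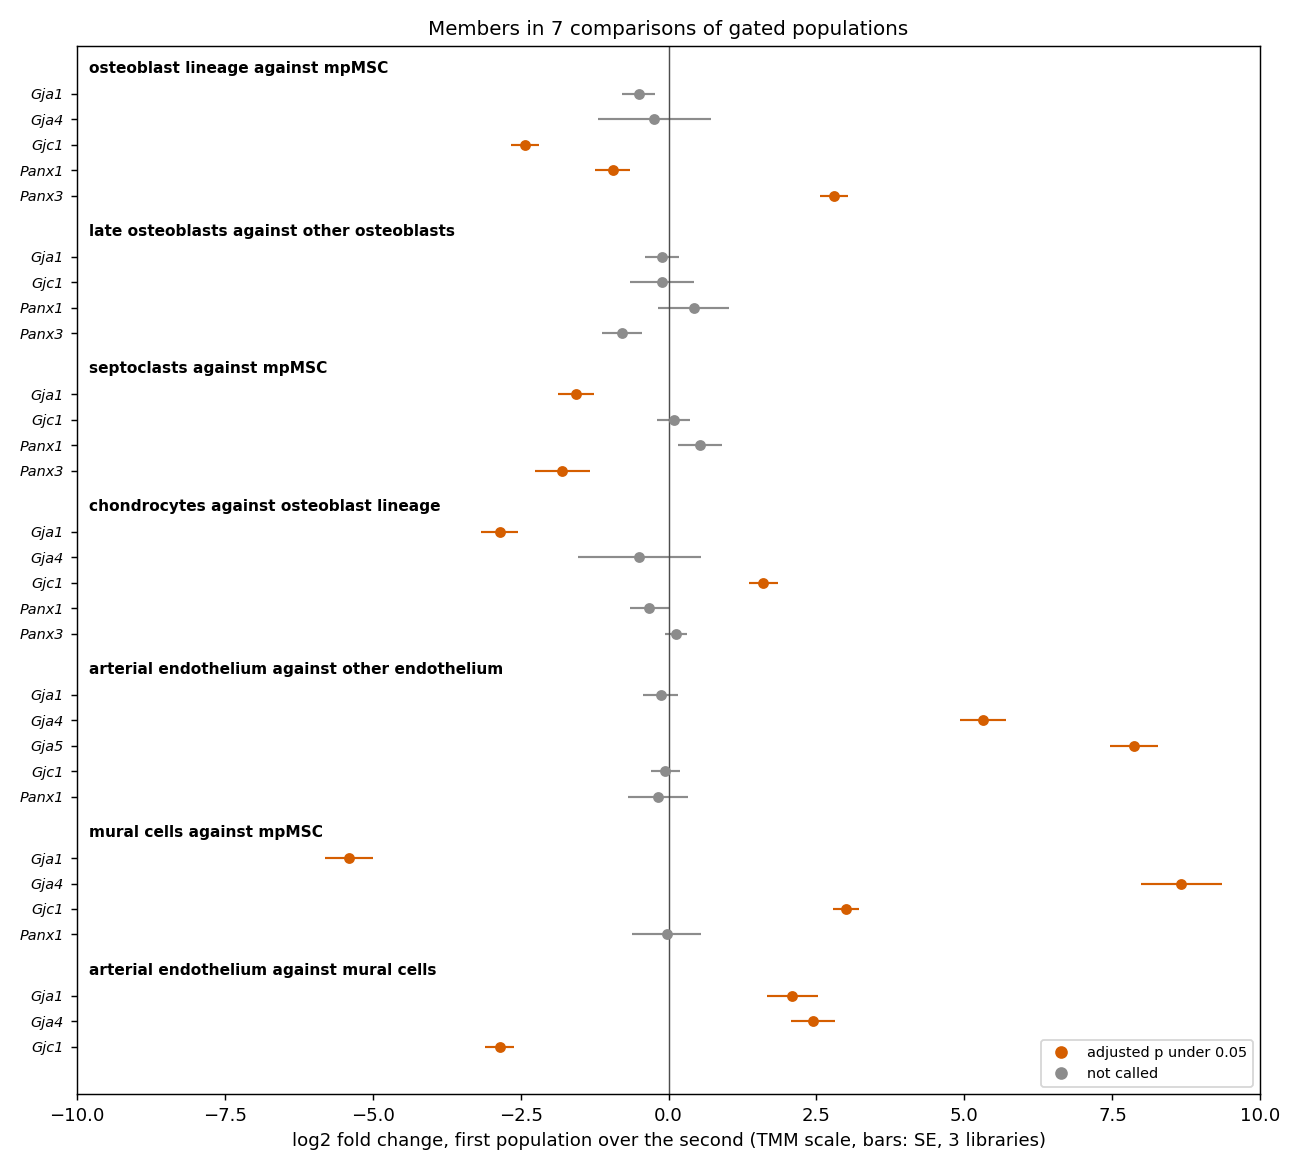
log2 fold change (first population over the second, TMM scale) of the members with at least 20 UMIs and more than 3 UMIs on each side, in 7 comparisons over 3 libraries; bars are SE and orange marks an adjusted p under 0.05. *Gja4* and *Gja5* lie at 5.32 and 7.86 in arterial-like against other endothelium, and no member is orange in late against other osteoblast-like cells.

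The genes were also counted together in single cells. Of the arterial-like cells with *Gja5*, 98.2%, 94.9% and 96.6% also held *Gja4*, close to its share among all arterial-like cells (92.5% to 95.7%). Both were seen in 56 of 93, 37 of 70 and 57 of 99 cells. In mural-like cells *Gja4* and *Gjc1* were seen together in 10 of 19, 13 of 19 and 39 of 76 cells. Among all mural-like cells *Gja4* was seen in 63.2% to 73.7% and *Gjc1* in 63.2% to 89.5%. In the osteoblast lineage *Gja1* and *Panx3* were seen together in 71.6%, 64.9% and 27.1% of cells, and 100%, 99.2% and 96.6% of the *Panx3*-positive cells had *Gja1*, close to its share among all cells of the lineage (99.5%, 98.4% and 96.5%). In hypertrophic chondrocyte-like cells *Gja1* was seen in 40.0%, 64.3% and 42.6% of the *Panx3*-positive cells (5, 14 and 204 cells), against 67.9%, 75.0% and 39.1% of all hypertrophic cells. Of the hypertrophic cells of Pdgfra-GFP 1, 117 had *Panx3* alone, 108 had *Gja1* alone and 87 had both. In the hypertrophic cells of Pdgfra-GFP 1 the median depth was 13590 UMIs in cells with both and 8918 in cells with *Gja1* alone, and the part of depth in the shares of cells with both was not tested.

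**Figure D4:**
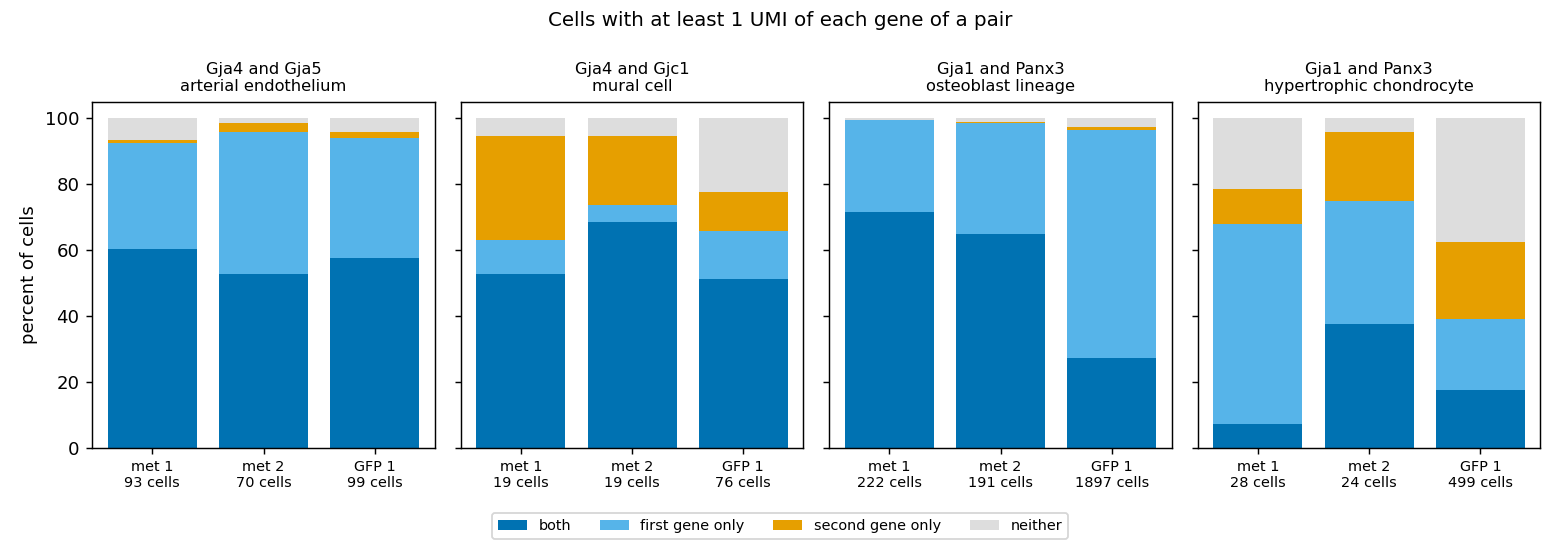
Percent of cells with at least 1 UMI of both genes of a pair, of 1 of them or of neither, for 4 pairs and populations; each bar is 1 library (met, metaphyseal; GFP, Pdgfra-GFP) with its number of cells below. *Panx3* without *Gja1* was seen in 0%, 0.524% and 0.949% of osteoblast lineage-like cells, nearly all of which held *Gja1*, and in 10.7%, 20.8% and 23.4% of hypertrophic chondrocyte-like cells.

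*Panx1* (chromosome 9, 15002128 to 15045478, minus strand) had no population above 24 CPM. Its highest mean was in dpMSC-like cells, at 14.7, 14.9 and 17.7 CPM, followed by septoclast-like cells at 7.25, 23.2 and 12.8 CPM, which overlapped them. The osteoblast lineage was at 3.66, 1.78 and 2.26 CPM. Near-empty barcodes held 5.58, 4.11 and 6.02 CPM, which is above the osteoblast lineage of each library and below dpMSC-like cells of each library.

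A list of 10 gap junction partners (scaffolds, cadherin and catenin) was read in the same fits. So was another of 16 receptors and enzymes for extracellular nucleotides and adenosine, called ATP genes here for short. Of these, 9 and 12 were tested (10 of the ATP genes in the late osteoblast comparison). In the osteoblast lineage against mpMSC-like cells, 2 partners rose and 3 fell (median log2 fold change 0.52, against -0.04 over all genes) and 1 ATP gene rose and 3 fell, where 17.7% of all genes were called higher and 18.2% lower. *Entpd3*, an enzyme that hydrolyses extracellular ATP, rose by 5.64 ± 0.35 to a mean of 113 CPM, and *Enpp1*, which makes pyrophosphate from ATP, fell by 1.79 ± 0.23. Among partners *Dbn1* (drebrin) fell by 1.33 ± 0.19, while *Ctnnb1* (β-catenin) was called higher by 0.52 ± 0.18 although its CPM were lower in 3 of 3 libraries, 345 against 395 on average. In late against other osteoblast-like cells no partner and 2 ATP genes were called, both higher (1.62% of all genes higher, 1.24% lower). In septoclast-like cells, where 3.43% of all genes were called higher, 1 gene of each list rose, *Tjp1* (ZO-1, the scaffold that binds connexin 43) by 0.94 ± 0.29 (adjusted p = 0.049 by edgeR).

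In chondrocyte-like cells against the osteoblast lineage all 9 partners were called, 3 higher and 6 lower (median -1.02, against -0.01 over all genes, of which 19.6% were called higher and 19.4% lower). *Cdh2* (N-cadherin) fell by 5.62 ± 0.41, from a mean of 352 to 5.29 CPM, and *Tjp1* fell by 1.02 ± 0.24, with lower CPM in 2 of 3 libraries. Of the ATP genes 5 rose and 2 fell. *Entpd3* fell by 6.97 ± 0.38, and *Nt5e*, which turns AMP into adenosine, rose by 4.34 ± 0.32 to a mean of 219 CPM.

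In arterial-like against other endothelium 2 partners and 2 ATP genes rose and none fell (6.21% of all genes higher, 8.96% lower), with *Cav1* (caveolin 1) up by 2.94 ± 0.21 and *Dbn1* by 1.30 ± 0.17. In mural-like against mpMSC-like cells (6.75% of all genes higher, 6.02% lower) 2 partners rose and 2 fell, *Cav1* up by 4.18 ± 0.41 and *Ctnnb1* down, with a log2 fold change of -1.22 ± 0.21. Of the ATP genes 2 rose and 1 fell there. *P2ry14*, a receptor for UDP-glucose, had 34 UMIs in mural-like cells against 2 in mpMSC-like cells. That is a ratio of 228 in CPM, with a counting interval of 58.4 to 1957. *Enpp1* fell by 2.26 ± 0.52. *P2ry14* was also present in dpMSC-like cells, at 31.5 to 38.7 CPM over the libraries, against 40.6 to 56.8 CPM in mural-like cells. Mural-like and dpMSC-like cells were not tested against each other. Between arterial-like and mural-like cells (10.5% of all genes higher, 9.91% lower) 5 partners were higher in the endothelium and 2 lower, *Cav1* by 3.75 ± 0.27 and *Cdh2* by -4.87 ± 0.58, and 4 ATP genes were higher and 2 lower. *P2ry14* had 0 UMIs in arterial-like cells, so mural-like cells were at least 27.0-fold higher against a floor of 3 counts over the group. *Entpd1* (CD39, the vascular ATP-hydrolysing enzyme) was higher in the endothelium by 5.58 ± 0.70, at a mean of 253 against 7.44 CPM.

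Finally, the genes whose levels ran most like those of each member were found over the 38 population sums of the fit (14 populations, 8242 genes with at least 20 CPM somewhere, gate markers left out), with Pearson's r of log2(CPM + 10). These sums share libraries and cell types, so r is a description, and by Spearman's rho 7 of the 8 members kept fewer than 2 of the 3 genes. *Gja4* ran with *Bcam* (r = 0.94), *Rnf152* (0.92) and *Cxcr4* (0.92), and *Gja5* with *Egfl8* (0.95), *Ptprr* (0.95) and *Gipc2* (0.94), although Spearman's rho of these 3 was 0.43, 0.45 and 0.50. *Gjc1* ran with *Ppp1r12a* (0.91), a subunit of myosin phosphatase, *Pcdh19* (0.90) and *Olfml2a* (0.89). *Panx3* ran with *Slc8a3* (0.92), a sodium-calcium exchanger, *Ckap4* (0.89) and *Col11a1* (0.87), and *Gjb6* with *Rtl3* (0.93), *Syt8* (0.91) and *R3hdml* (0.91). The match was loosest for *Gja1* and *Panx1*. *Gja1* reached 0.79 with *Ebp*, *Itga11* and *Slit2*, and *Panx1* 0.77 with *Stard3nl* and *Gm12216* and 0.76 with *Trim35*. *Gjb2* ran with *Slurp1* (0.91), *Gpha2* (0.86) and *Medag* (0.85) on few UMIs. Its highest sum, 6.45 CPM in fibroblast-like cells, came from 1 cell.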

How the data were processed

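Libraries metaphyseal 1, metaphyseal 2 and Pdgfra-GFP 1 were analysed. The authors deposited whole, unfiltered UMI counts for every barcode of the whitelist, aligned to mm10 with STARsolo (submitters' processing notes: fastp 0.20, STAR 2.7.3a; Gencode M23 per the study's methods). Their EmptyDrops filter and their Wilcoxon test over cells were not used here. Cells were kept with at least 1500 (metaphyseal) or 1000 (Pdgfra-GFP) genes, at most 15% mitochondrial and 30% ribosomal UMIs. Scrublet in scanpy 1.11.5 marked 25, 18 and 168 doublets, which were kept and left out in an alternative.

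Each cell was scored on every marker list as the mean of scaled log counts and assigned to the highest at a score of 0.2 and a margin of 0.05; 75, 56 and 869 cells stayed ungated. The gate thresholds were set after cell numbers and member levels had been seen, and members and lists were chosen with earlier results of these data known. Sums of at least 10 cells per library and population were tested with edgeR 4.0.16 (TMM, filterByExpr, quasi-likelihood, population and library terms) in R 4.3.3, with all populations in 1 fit (25 sums; 38 with subtypes), so that comparisons share sums: osteoblast lineage-, mpMSC-, mural- and arterial-like cells each serve in several. DESeq2 1.42.0 was an alternative. CPM without TMM and a robust fit were added after the data had been seen. An adjusted p under 0.05 was called. The genes named are the 8 members, other family genes with at least 20 CPM, up to 2 called genes of each list per comparison with the largest changes at a mean of at least 20 CPM, and the 3 genes most like each member. Intervals are exact 95% (Poisson, binomial) and cover counting error only, and a count of 0 allows 3 counts. Tests were tried on simulated counts. Positions are from Gencode M21 (54587 of 55422 IDs found) and promoters from RefSeq, which held 6 of the 8 members.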

Additional observations from a re-analysis of the deposited data

Results flagged for a closer look

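Of 44 pairs of a member and a comparison of populations, 4 had the sign of the CPM difference the same in both metaphyseal libraries and opposite in Pdgfra-GFP 1. The difference between the library types was not tested, and with 1 Pdgfra-GFP library it has no replicate. *Gja1* was higher in hypertrophic than in other chondrocyte-like cells of the metaphyseal libraries, by 106 CPM (156 against 49.1) and 140 CPM (198 against 58.0), on 59 against 11 and 92 against 16 UMIs. In Pdgfra-GFP 1 the difference was -18.6 CPM (68.2 against 86.9, on 355 and 597 UMIs). *Gjc1* in septoclast-like minus mpMSC-like cells was 6.93, 46.4 and -1.14 CPM, on 7, 7 and 56 septoclast-like UMIs. *Gjc1* in arterial-like minus other endothelium-like cells was -3.70, -2.70 and 7.95 CPM. *Panx1* in hypertrophic minus other chondrocyte-like cells was 7.91, 4.30 and -0.073 CPM, where the metaphyseal values rest on 3 and 2 UMIs against 0 and 0.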

How the results depend on the processing

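Under 15 alternative settings, 96 of 105 counts of members called stayed within 1.5 times the reported one. In late against other osteoblast-like cells the count of 0 became 1 (*Panx3*) with no filter on low counts (adjusted p = 0.00639) and with at least 20 cells per sum (0.0232). In septoclast-like against mpMSC-like cells the count of 2 became 1 in 7 settings: *Gja1* alone was called with only the 2 populations in the fit, at least 20 cells, the stricter gate, no cycling cells, without metaphyseal 2 and without Pdgfra-GFP 1, and the counts with 1 library left out ran from 1 to 2. The fit had the library as a block. Without the replicate block *Panx3* alone was called there (1 member, *Gja1* adjusted p = 0.0661), and *Panx1* was no longer called in the osteoblast lineage (0.0541). Without the block, calls over all genes fell from 4813 to 2772 (osteoblast lineage), 342 to 100 (late osteoblasts), 882 to 342 (septoclasts), 5228 to 3224 (chondrocytes), 2037 to 1086 (arterial) and 1714 to 1125 (mural against mpMSC).

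The calls of *Gja4* and *Gja5* in arterial-like cells, *Gja4*, *Gjc1* and *Gja1* in mural-like cells, *Panx3* and *Gjc1* in the osteoblast lineage, and *Gja1* and *Gjc1* in chondrocyte-like cells held under all 15 settings. DESeq2's Wald test did not call *Panx1* in the osteoblast lineage (adjusted p = 0.230) or *Gjb6* in chondrocyte-like cells (0.513), and *Panx1* was lost without metaphyseal 2 (0.156). Without Pdgfra-GFP 1 neither gene passed the filter, nor did *Panx3* in the septoclast and mural fits of 2 populations. *Panx3* in septoclast-like cells was lost with at least 20 cells (0.0654), the stricter gate (0.159) and without cycling cells (0.0598), and *Panx3* in mural-like cells with at least 20 cells (0.156).

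In 20 cases, none called in either fit, the log2 fold change turned sign, and the cause was not tested. On CPM without TMM, *Panx1* became 0.037 in chondrocyte-like and 0.017 in mural-like cells and *Gjc1* 0.015 in arterial-like cells. With at least 20 cells, *Gja1* (0.027) and *Gjc1* (0.048) turned in late osteoblast-like and *Panx1* (0.034) in mural-like cells. With the stricter gate, *Gjc1* became 0.65 in late osteoblast-like and -0.035 in septoclast-like cells and *Panx1* 0.11 in mural-like cells. Without cycling cells, *Gjc1* became 0.26 in late osteoblast-like and *Panx1* 0.14 in mural-like cells. With only the 2 populations *Gjc1* became 0.0081 in arterial-like cells. DESeq2's Wald test gave -0.0067 for *Panx1* in late osteoblast-like and -0.14 for *Panx3* in chondrocyte-like cells. With 1 library left out, *Gja4* in the osteoblast lineage ran from -2.34 to 0.014, *Gjc1* from -0.25 to 0.013 in late osteoblast-like, -0.034 to 0.48 in septoclast-like and -0.11 to 0.027 in arterial-like cells, *Panx1* from -1.18 to 0.010 in arterial-like cells, and *Panx3* from -0.063 to 0.37 in chondrocyte-like cells.

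Other settings moved the calls over all genes by over 1.5 times. CPM without TMM gave 8609 calls in the osteoblast lineage, and the fit of 2 populations 3425 in chondrocyte-like and 1140 in mural-like cells. In late osteoblast-like cells DESeq2's Wald test gave 2107 (4.18% of them higher), no filter 703, the stricter gate 792 and leaving out 1 library 96 to 195; the share of higher calls, 56.7%, was 71.6% on CPM without TMM and 46.6% with DESeq2 size factors. DESeq2's Wald test gave 491 in septoclast-like cells, and its calls were higher in 69.2% (osteoblast lineage), 35.6% (chondrocytes), 22.6% (arterial) and 38.3% (mural), and at least 20 cells 900 in mural-like cells. Leaving out 1 library gave down to 215 in septoclast-like, 1079 in mural-like and 1080 in arterial-like cells, 3027 in the osteoblast lineage, and 1822 between arterial-like and mural-like cells. With at least 20 cells, septoclast-, mural- and late osteoblast-like cells kept the Pdgfra-GFP 1 sum alone, assumed to vary like the others.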

Other observations

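Endothelium-like cells were left without a subtype where the best subtype score was under 0.2 or led the next by under 0.05. These cells (110, 82 and 34), which can score on several subtype lists, carried *Gja4* at 83.9, 112 and 411 CPM. They carried *Gja5* at 3.00, 2.16 and 43.6 CPM (2, 1 and 7 UMIs). Both genes lay between the arterial-like and sinusoidal-like cells in each library. In erythroid-like cells *Gja4* was at 0 UMIs except in metaphyseal 2, where 1 of 10 cells held all 10 UMIs (57.2 CPM). Among the connexins and pannexins outside the 8, *Gja10*, *Gjd2* and *Gjd3* had 0 UMIs in all cells kept, and *Panx2*, named after its values were seen, reached 13.4 CPM on 3 UMIs in other chondrocyte-like cells of metaphyseal 1.

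Transcript counts do not show whether channels form, and 3′ UMIs do not separate isoforms. Only 1 library was sorted for GFP, and only its mice were heterozygous reporters. The sort, this genotype, the epiphysis in that library and the library itself cannot be told apart. The labels give Chromium V2/V3 for every library, while the study's methods name the V3 kit. A difference in chemistry between libraries was not tested. Pdgfra-GFP 1 held 315 endothelium-like and 76 mural-like cells.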
